A study of Mus musculus with 6 samples.

Results

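The 32 genes described here belong to the unfolded protein response and the integrated stress response, and they were chosen by name, as the rows of the normalised count table whose NCBI Gene identifiers map to the listed mouse symbols. Of the 32, 31 had a mean of at least 10 normalised counts over the 6 libraries and were tested among 13946 genes that met the same minimum, out of 27179 rows. The exception was Derl3. They comprise 5 sensors and transcription factors, 14 chaperones and folding enzymes of the endoplasmic reticulum (ER), 4 genes of ER-associated degradation and 9 targets of the transcription factor ATF4.

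RNA was sequenced from whole glomeruli, the capillary filters of the kidney, of 6 males, 9 weeks old and of strain C57BL/6 mixed. Glomeruli were isolated by perfusion with magnetic beads. All 6 mice were Parva-fl/fl. The 3 mice called KO also carried hNPHS2Cre, in which the human podocin promoter drives Cre in podocytes, and the 3 mice called WT did not. Parva encodes alpha-parvin, a scaffold of integrin adhesions, and mild proteinuria is given for the mice in the labels. No mice with Cre and an unfloxed Parva are among these samples, so deletion of Parva and presence of Cre cannot be told apart.

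When unfolded proteins build up in the ER, 3 membrane sensors respond. IRE1 (Ern1) splices the messenger of the transcription factor XBP1, ATF6 is cut to free its own transcription factor, and PERK (Eif2ak3) phosphorylates eIF2alpha, which slows protein synthesis while favouring translation of ATF4. XBP1 and ATF6 are known to act on chaperone and degradation genes, and ATF4 on genes of amino acid synthesis, amino acid uptake and cell death; eIF2alpha is also phosphorylated by kinases that sense other stresses. Podocytes and tubule cells secrete or process much protein, and this response has been studied in both in proteinuric disease. Splicing, cleavage and phosphorylation are not seen in counts per gene. Levels below are normalised counts, listed in the order of replicates 1 to 3 of each genotype.

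Among these genes only Psat1, an enzyme of serine synthesis, passed the test between KO and WT. That is 1 of 31 genes called higher at an adjusted p below 0.05 in limma, beside 13.5% of all genes tested, and 0 of 31 called lower, beside 8.58%. At an unadjusted p below 0.05 in limma there were 5 of 31 genes, Psat1, Phgdh, Herpud1, Atf4 and Ddit3, beside 5563 of all 13946 genes tested. With edgeR and DESeq2 on the recovered reads Psat1 alone was likewise called. In the ER chaperones the genotypes overlapped: nearly all were highest in a single KO library, KO-3, while KO-1 and KO-2 lay mostly below the WT mean. The median log2 fold change (KO minus WT) was 0.05 over the 31 genes and -0.006 over all genes tested. These shares of all genes were themselves unstable. In limma they rested on 1889 genes called higher and 1196 lower, against 1 and 0 without WT-2, 0 and 0 without WT-3, 2 and 2 without KO-2, 2 and 1 without KO-3, and 2599 and 1695 without WT-1. A positive change was found in 19 of 31 genes, beside 49.4% of all genes.

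**Figure D1:**
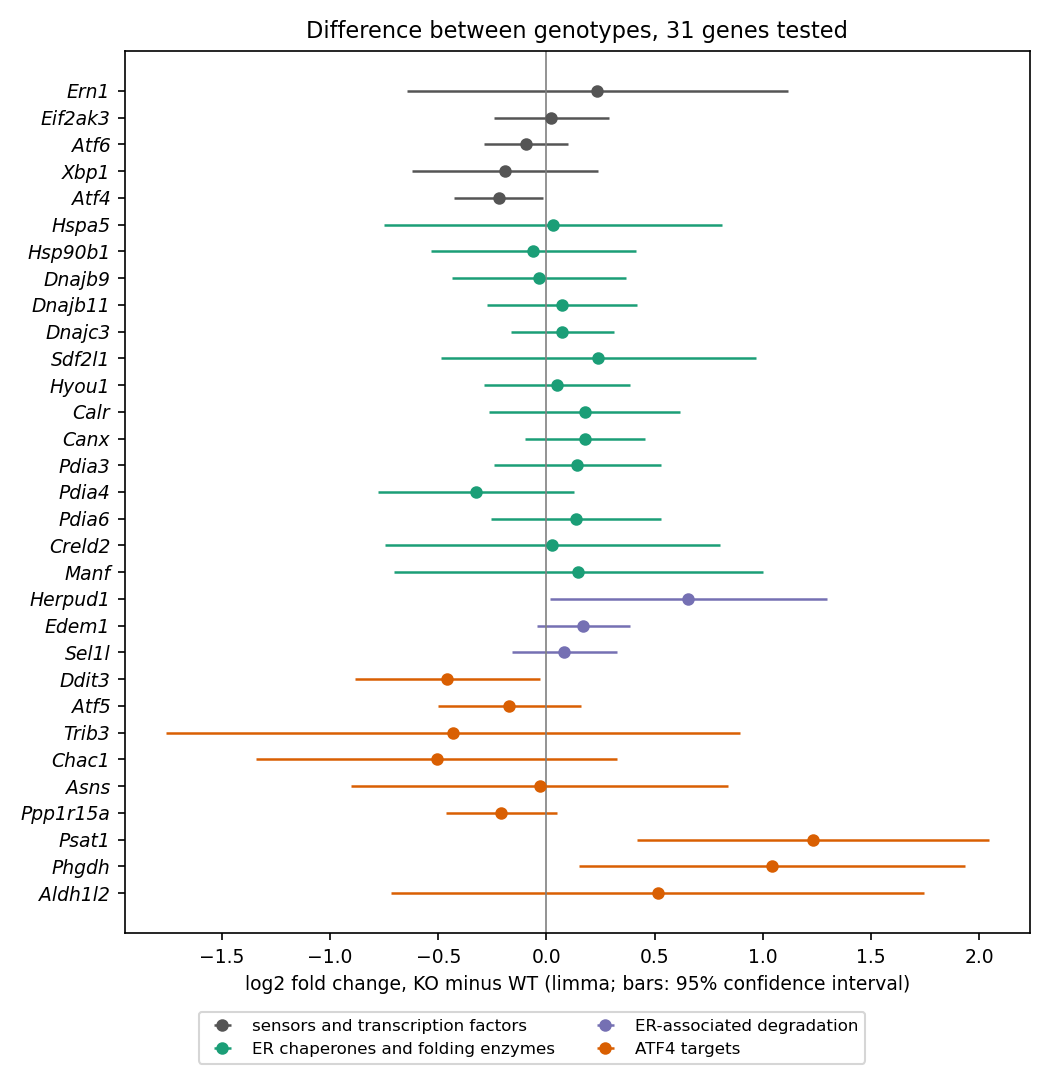
Log2 fold change between KO and WT (x axis, 3 libraries each) for the 31 genes tested, grouped by role, with points for the limma estimate and bars for its 95% confidence interval. The intervals of Psat1, Phgdh, Herpud1, Atf4 and Ddit3 leave out 0, and of these only Psat1 passed after adjustment over 13946 genes. Of all these genes, 5563 had an unadjusted p below 0.05 in limma.

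The libraries held 11886828 to 20552984 recovered whole reads. In 4 of them, WT-1, WT-2, WT-3 and KO-1, 10 genes with an extreme level in a single library (30 times the next or more) took 17.4% to 32.4% of the reads, and in KO-2 and KO-3 they took 0.241% and 0.239%. Parva stood at 6585, 7520 and 7890 normalised counts in WT and at 2288, 2338 and 1942 in KO (log2 fold change -1.74, limma adjusted p = 0.0106). Markers of other compartments also differed between genotypes. All 20 proximal tubule markers rose, and their summed level was 68734 to 156780 in WT, highest in WT-1, and 209830 to 301160 in KO. Of the glomerular markers, 12 of 14 endothelial, 8 of 9 mesangial and 6 of 14 podocyte genes fell. In RNA of whole tissue, fewer cells of a type and less RNA per cell cannot be told apart, and the part of this shift in the results below was not tested. Some fits below take the mean of the proximal tubule markers as a covariate. That mean was higher in every KO library than in every WT library. With 6 libraries its effect and that of genotype can hardly be told apart, so these fits do not show how much of a change is due to tubule RNA.

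Several promoters of the chaperone genes, though not all, hold sequences through which ATF6 and XBP1 are known to act. These are shown because the genes were chosen by name, without regard to sequence. RefSeq promoter windows (GRCm38.p6, the assembly of mm10), from 250 bases before to 50 after the annotated start, were found for 28 of the 32 genes. The ER stress response element, CCAAT followed after 9 bases by CCACG on either strand, was in 7 of 12 chaperone windows and in the window of Derl3. It was in 0.137% of 27025 genes. The matches follow in the direction of the motif, 5′ to 3′, with its fixed letters in capitals.
Hspa5: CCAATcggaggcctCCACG
Hsp90b1, first match: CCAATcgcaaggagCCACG
Hsp90b1, second match: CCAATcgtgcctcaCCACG
Dnajc3: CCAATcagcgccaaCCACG
Calr: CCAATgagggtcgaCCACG
Canx: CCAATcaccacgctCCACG
Pdia6: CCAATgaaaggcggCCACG
Creld2: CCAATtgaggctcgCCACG
Derl3: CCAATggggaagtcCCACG
The second form of the element, ATTGG and CCACG separated by 1 base, was in the windows of Dnajb11 and Herpud1 and in 0.0444% of genes. Both matches are given in the same way.
Dnajb11: ATTGGcCCACG
Herpud1: ATTGGgCCACG
The XBP1 motif TGACGTGG was in none of the 28 windows and in 0.714% of genes. The motif read by ATF4 with its C/EBP partners, taken as TGATG, any base and AA, was in the windows of Asns, Chac1, Trib3 and Herpud1 and in 4.51% of genes. No match in a window says only that these letters are not in it.

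The whole windows of 4 genes show where the matches lie, in the direction of the gene and with the matches in capitals. Hspa5 (chr2:34771840-34772139, plus strand) encodes BiP, the master chaperone of the ER, and has its match at -65 to -47 from the start. Creld2 (chr15:88819396-88819695, plus strand) has its match at -126 to -108 on the opposite strand. Herpud1 (chr8:94386179-94386478, plus strand) holds both an ATF4 motif, at -112 to -105 on the opposite strand, and the second form of the ER element, at -52 to -42. Chac1 (chr2:119350992-119351291, plus strand) has an ATF4 motif at -193 to -186 on the opposite strand.
Hspa5 promoter: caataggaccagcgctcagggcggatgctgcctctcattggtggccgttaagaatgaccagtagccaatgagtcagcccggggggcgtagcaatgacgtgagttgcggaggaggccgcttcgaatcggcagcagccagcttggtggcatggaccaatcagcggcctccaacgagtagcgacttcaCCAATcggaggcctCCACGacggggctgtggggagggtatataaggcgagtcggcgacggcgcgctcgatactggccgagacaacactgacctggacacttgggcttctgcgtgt
Creld2 promoter: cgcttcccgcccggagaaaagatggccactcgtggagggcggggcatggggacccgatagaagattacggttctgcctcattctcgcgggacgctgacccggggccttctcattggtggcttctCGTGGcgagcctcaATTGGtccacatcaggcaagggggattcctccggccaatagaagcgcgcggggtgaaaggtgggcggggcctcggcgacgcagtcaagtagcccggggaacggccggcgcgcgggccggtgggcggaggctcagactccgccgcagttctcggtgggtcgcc
Herpud1 promoter: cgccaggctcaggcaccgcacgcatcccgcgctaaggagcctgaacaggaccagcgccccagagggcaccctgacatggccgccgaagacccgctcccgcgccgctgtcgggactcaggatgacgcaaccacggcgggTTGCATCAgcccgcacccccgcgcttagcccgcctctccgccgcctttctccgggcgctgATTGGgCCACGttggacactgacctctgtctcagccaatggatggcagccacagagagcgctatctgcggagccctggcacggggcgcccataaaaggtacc
Chac1 promoter: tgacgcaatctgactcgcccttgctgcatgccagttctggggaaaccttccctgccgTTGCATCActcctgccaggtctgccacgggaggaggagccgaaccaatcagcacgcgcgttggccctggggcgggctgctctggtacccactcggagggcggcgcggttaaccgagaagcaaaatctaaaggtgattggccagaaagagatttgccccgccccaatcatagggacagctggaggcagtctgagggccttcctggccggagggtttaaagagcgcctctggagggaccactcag

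None of the 5 sensor and transcription factor genes passed the test. Ern1, the gene of IRE1, was scarce, at 72.8, 35.6 and 56.8 in WT and 84.2, 74.7 and 38.6 in KO. The libraries of both genotypes were interleaved, and the 95% confidence interval of the log2 fold change ran from -0.65 to 1.12. Eif2ak3, the gene of PERK, stood at 489, 473 and 466 in WT and at 478, 428 and 551 in KO. Its interval was narrower, from -0.24 to 0.29.

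Atf6 and Atf4 were the genes whose 3 KO libraries all lay below the 3 WT libraries, which was so in 2 of 31 genes and in 21.9% of all genes tested. Atf6 stood at 843, 831 and 875 in WT and at 816, 747 and 827 in KO, a log2 fold change of -0.09 (limma adjusted p = 0.430). Atf4, whose protein level is set mainly by translation, stood at 1904, 2216 and 2077 in WT and at 1772, 1728 and 1809 in KO. Its mean was 2066 ± 156 (SD, n = 3) in WT and 1770 ± 40.4 (SD, n = 3) in KO. On the log2 scale the difference was -0.22 (SE 0.09) with an adjusted p of 0.108 in limma, and -0.03 with a covariate for the proximal tubule markers. Xbp1 counts, which sum the spliced and unspliced messenger, were 2232, 2674 and 2086 in WT and 1740, 1797 and 2680 in KO, so that KO-3 was level with WT-2 and the other KO libraries were the lowest of the 6.

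Hspa5 shows the pattern of the chaperones most plainly. It stood at 10054, 10668 and 8763 in WT, at 7488 and 7508 in the first pair of KO libraries and at 17851 in KO-3. KO-1 and KO-2 were thus below every WT library and KO-3 was 1.67 times the highest other library. The group means were 9828 ± 972 (SD, n = 3) in WT and 10949 ± 5977 (SD, n = 3) in KO, and the log2 fold change was 0.03 with a 95% interval from -0.75 to 0.81 (limma adjusted p = 0.952). Without KO-3 the log2 fold change was -0.39 (unadjusted p = 0.0364, limma adjusted p = 0.119).

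KO-3 was the highest of the 6 libraries in 13 of the 14 chaperone genes, beside 18.2% of all genes tested. The remaining gene was Pdia4, at 2884 in KO-3 and 2885 in WT-2. Relative to the WT mean, the 14 genes ran from 1.10-fold to 2.06-fold in KO-3 with a median of 1.35-fold. The medians in KO-1 and KO-2 were both 0.893-fold, with 12 and 11 of the 14 genes below the WT mean. KO-3 was at least 1.5 times the highest other library in 4 of the 14 genes, Hspa5, Sdf2l1, Creld2 and Manf, and in 6 of all 31, beside 2.37% of all genes. KO-1 and KO-2 were both below every WT library in 6 chaperone genes and in 14 of the 31 genes, beside 27.2% of all genes. These counts by library were chosen after the values were seen and describe single libraries, not the genotypes.

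**Figure D2:**
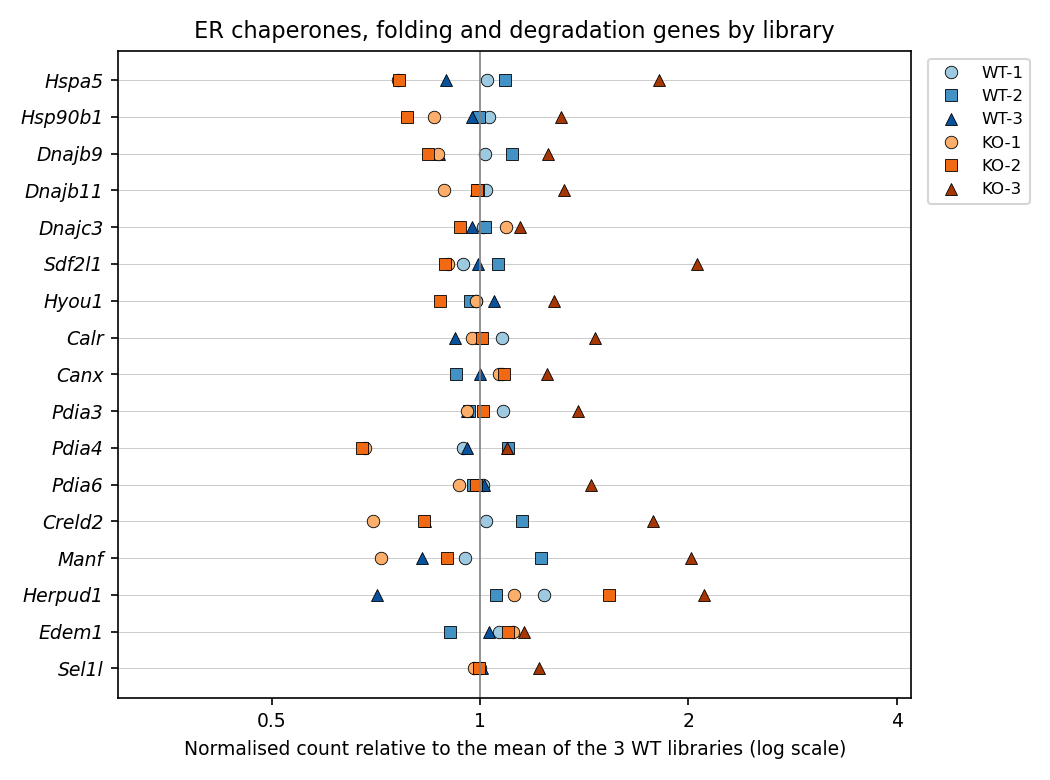
Normalised count of each ER chaperone, folding and degradation gene in each of the 6 libraries, divided by the mean of the 3 WT libraries (x axis, log scale; circles, squares and triangles are replicates 1, 2 and 3, blue for WT and orange for KO). KO-3 is the rightmost point in 13 of the 14 chaperone genes from Hspa5 to Manf, and KO-1 and KO-2 are mostly left of the line at 1.

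The chaperone genes that stood furthest apart in KO-3 encode small or accessory ER proteins beside BiP. Sdf2l1, a partner of ER J-domain proteins, stood at 327, 367 and 343 in WT, at 311 and 307 in KO-1 and KO-2 and at 711 in KO-3. Creld2, an ER protein with EGF-like domains, stood at 590, 665 and 482 in WT, at 406 and 480 in KO-1 and KO-2 and at 1029 in KO-3. Manf, a secreted ER protein that binds BiP, stood at 1121, 1444 and 973 in WT, at 849 and 1058 in KO-1 and KO-2 and at 2377 in KO-3. In each of the 3 genes WT and KO overlapped, with log2 fold changes of 0.24, 0.03 and 0.15.

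The J-domain co-chaperones, which recruit BiP to its substrates, differed less between libraries. Dnajb9 stood at 1215, 1331 and 1044 in WT and at 1041, 1007 and 1498 in KO. Dnajb11 stood at 1991, 1942 and 1928 in WT and at 1733, 1932 and 2582 in KO. Dnajc3, which is also known to restrain eIF2alpha kinases, stood at 2990, 3011 and 2886 in WT and at 3228, 2773 and 3377 in KO. For Dnajc3 the interval of the log2 fold change was the narrowest of the 3, from -0.16 to 0.31.

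The large chaperones Hsp90b1 (GRP94) and Hyou1 (GRP170) were also highest in KO-3. Hsp90b1 stood at 11312, 10925 and 10678 in WT and at 9403, 8616 and 14350 in KO, and Hyou1 at 1933, 1892 and 2052 in WT and at 1933, 1712 and 2508 in KO. The lectin chaperones calreticulin (Calr) and calnexin (Canx) hold glycoproteins during folding. Calr stood at 12377, 11544 and 10559 in WT and at 11182, 11567 and 16825 in KO, and Canx at 6440, 5507 and 5984 in WT and at 6370, 6467 and 7465 in KO. Calr was the most abundant of the 32 genes per length of exon, with 4286 normalised counts per kb, followed by Hsp90b1 with 2699, Pdia3 with 2669 and Hspa5 with 2457. The scarcest per length among those tested was Aldh1l2, with 2.08.

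The protein disulfide isomerases form and exchange disulfide bonds. Pdia3 stood at 8543, 7627 and 7563 in WT and at 7564, 7999 and 10972 in KO. Pdia6, which is known to limit IRE1 signalling, stood at 3171, 3068 and 3182 in WT and at 2926, 3101 and 4535 in KO. Pdia4 stood at 2489, 2885 and 2524 in WT and at 1796, 1779 and 2884 in KO, with KO-1 and KO-2 far below the rest. Of the 14 genes Pdia4 had the most negative log2 fold change, -0.33 (limma adjusted p = 0.244), and this was also the smallest adjusted p among the chaperones. Over the class, 11 log2 fold changes were positive and 3 negative, with a median of 0.07 with all libraries and -0.13 without KO-3.

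The 7 chaperone genes with the first form of the ER stress response element in the window and the 5 with a window but no match to that form are set side by side here. Dnajb11, which has the second form, is among the 5. KO-3, which was picked out after the values were seen, was highest in 7 of 7 and in 4 of 5 of them, beside 18.2% of all genes tested. Among the 12 other genes measured that carry the element, which include Syvn1 and Ero1b of the ER and many genes of unrelated function, KO-3 was highest in 3. A part of the element in the values of KO-3 was not tested.

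The genes of ER-associated degradation, which extracts misfolded proteins for the proteasome, all had higher means in KO, and none passed the test. Herpud1, an ER membrane protein of the degradation complex, stood at 1696, 1444 and 973 in WT and at 1534, 2102 and 2887 in KO. Its mean was 1371 ± 367 (SD, n = 3) in WT and 2174 ± 680 (SD, n = 3) in KO, a log2 fold change of 0.65 with an interval from 0.02 to 1.29 (limma adjusted p = 0.119). It was -0.19 with a covariate for the proximal tubule markers. The deposited values of Herpud1 and Manf were identical in WT-2 and in WT-3 and differed in the other 4 libraries; 50 of 5566 genes with a mean above 500 shared both of these values with another gene, and 0 shared all 6.

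Edem1, a lectin that hands glycoproteins over for degradation, was with Psat1 the other gene whose KO libraries all lay above the WT libraries. Such a separation was found in 2 of 31 genes and in 23.2% of all genes. Edem1 stood at 1062, 902 and 1029 in WT and at 1111, 1096 and 1153 in KO (log2 fold change 0.17, limma adjusted p = 0.204). Sel1l, the adaptor of the ubiquitin ligase HRD1, stood at 1809, 1795 and 1819 in WT and at 1772, 1803 and 2199 in KO. Derl3, of the derlin family, was counted with 4, 1 and 4 reads in WT and 7, 9 and 17 in KO, too few for the filter, and was not tested.

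Of the 9 ATF4 targets, Psat1 rose and 8 did not pass the test. Psat1, phosphoserine aminotransferase, stood at 292, 144 and 190 in WT and at 315, 462 and 718 in KO. KO-1 lay just above WT-1 and KO-3 far above the rest. The WT mean was 209 ± 75.6 (SD, n = 3) and the KO mean 499 ± 204 (SD, n = 3). On the log2 scale Psat1 rose by 1.23 (SE 0.35), with an adjusted p of 0.0443 in limma. The call was lost in limma when WT-2 (adjusted p = 0.142), WT-3 (0.131), KO-2 (0.127) or KO-3 (0.103) was left out, at log2 fold changes of up to 1.24 and down to 0.93 without KO-3. The log2 fold change was 0.01 once the mean of the proximal tubule markers entered as a covariate. That covariate was higher in every KO library than in every WT library, so its effect and that of genotype can hardly be told apart.

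Phgdh, the first enzyme of serine synthesis, was also highest in KO-3. It stood at 169, 72.2 and 66.7 in WT and at 167, 162 and 268 in KO, a log2 fold change of 1.04 (limma adjusted p = 0.0866). WT-1, the WT library with the most proximal tubule marker RNA, was level with KO-1 and KO-2, and the part of tubule RNA in Phgdh was not tested. Without WT-1 the log2 fold change was 1.47 and passed (limma adjusted p = 0.00503), and the tubule covariate gave -0.44. Aldh1l2, a mitochondrial enzyme of folate metabolism, had a mean of 13.9 ± 8.93 (SD, n = 3) in WT and 17.4 ± 0.355 (SD, n = 3) in KO, from 5 to 21 reads per library.

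The other 6 ATF4 targets all had a negative log2 fold change, with a median of -0.32, and none passed the test. This division of the 9 was made after the values were seen. Ddit3, the gene of the death-linked factor CHOP, stood at 329, 385 and 295 in WT and at 214, 215 and 312 in KO, a log2 fold change of -0.46 with an interval from -0.89 to -0.03 (limma adjusted p = 0.107). KO-3 lay within the WT range and KO-1 and KO-2 below it. Chac1, which degrades glutathione, stood at 22.8, 21.8 and 19.8 in WT and at 9.7, 15.2 and 21.5 in KO, and its log2 fold change was -0.51 (limma adjusted p = 0.322). Ppp1r15a (GADD34), which returns eIF2alpha to its active form, stood at 501, 463 and 420 in WT and at 382, 380 and 434 in KO (log2 fold change -0.21, limma adjusted p = 0.195). It was highest in WT-1, as were 8 of 11 immediate early genes of tissue handling, and the part of handling in it was not tested.

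Atf5, a transcription factor related to ATF4, stood at 374, 400 and 400 in WT and at 318, 309 and 425 in KO. Asns, asparagine synthetase, stood at 83.6, 91.1 and 44.4 in WT and at 46.1, 68.2 and 100.9 in KO, with an interval from -0.90 to 0.84. Trib3, a pseudokinase that restrains ATF4, stood at 9.8, 24.7 and 10.7 in WT and at 6.2, 7.6 and 20.4 in KO, or 7 to 25 reads. In these 3 genes too KO-1 and KO-2 were below KO-3.

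**Figure D3:**
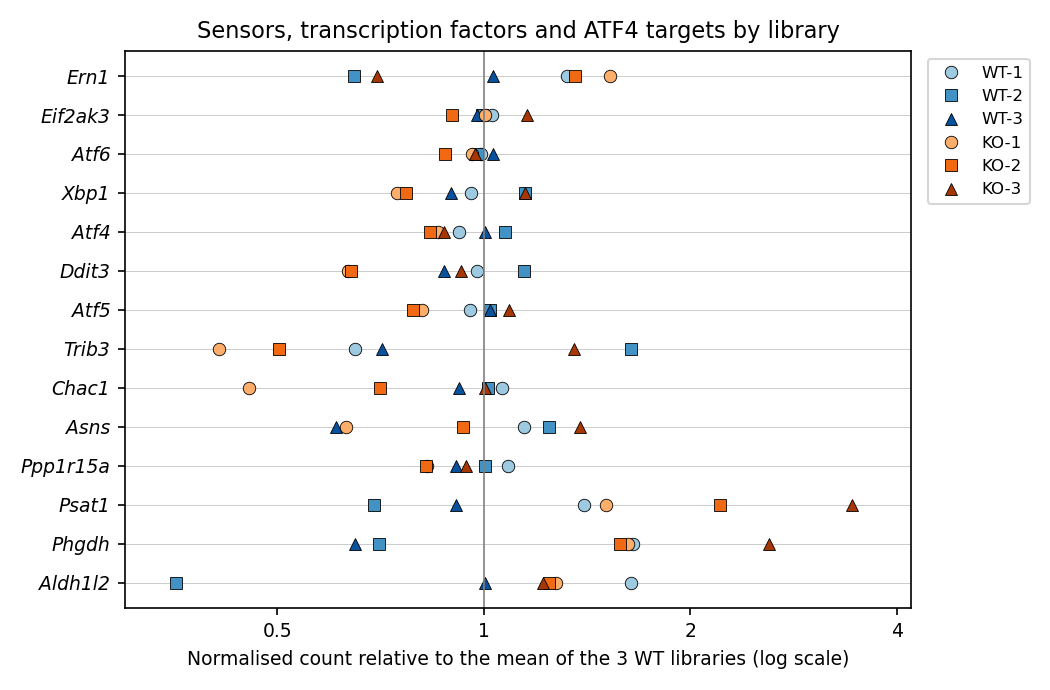
Normalised count of each sensor, transcription factor and ATF4 target gene in each of the 6 libraries, divided by the mean of the 3 WT libraries (x axis, log scale; circles, squares and triangles are replicates 1, 2 and 3, blue for WT and orange for KO). Psat1 is the gene at the right, with all KO points above the WT points, and from Ddit3 to Ppp1r15a KO-1 and KO-2 lie mostly below 1.

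The distance between chaperones and ATF4 targets was then compared by library. The mean log2(normalised count + 1) of the 14 chaperones was 11.45, 11.49 and 11.35 in WT and 11.24, 11.27 and 11.96 in KO. That of the 9 ATF4 targets was 6.72, 6.42 and 6.29 in WT and 6.27, 6.47 and 7.01 in KO. KO-3 was highest in both classes. The difference between the classes on this log2 scale was 4.73, 5.07 and 5.07 in WT and 4.98, 4.80 and 4.95 in KO, so that the KO values lay within the WT range. The mean of the 9 targets joins genes that differed in opposite directions. Averaged over the libraries of a genotype, Psat1, Phgdh and Aldh1l2 had a mean of 5.97 in WT and 6.89 in KO. The other 6 targets had 6.73 in WT and 6.43 in KO. The range above therefore does not hold for either subset by itself. Over all 31 genes, KO-3 exceeded the mean of KO-1 and KO-2 by a median of 0.55 (log2), and over all genes tested by -0.01.

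KO-3 also stood apart in markers of immune cells. Of 12 immune markers tested, 11 were highest in KO-3 and none passed between genotypes, with a summed level of 1341 to 2092 in WT, 2108 in KO-1, 1377 in KO-2 and 5397 in KO-3. Cd74, the invariant chain of antigen presentation, stood at 348, 447 and 516 in WT and at 608, 461 and 3089 in KO. C1qa, a complement gene of macrophages, stood at 196 in KO-3 and at most at 29.7 elsewhere. Plasma cells, which secrete antibody and carry much ER, were represented by 5 tested markers of 12, with a summed level of 579 to 813 in WT, 305 and 273 in KO-1 and KO-2 and 1073 in KO-3. Igha stood at 147, 188 and 69.1 in WT, at 53.2 and 40.1 in KO-1 and KO-2 and at 435 in KO-3, while the plasma cell receptor gene Tnfrsf17 was at 0 in 5 libraries, KO-3 among them. Prdm1, a transcription factor on the same list that other cells also express, went the other way, at 288, 361 and 312 in WT and 130, 172 and 124 in KO, and fell by 1.18 on the log2 scale (limma adjusted p = 0.0286). KO-3 was its lowest library and the highest for the other 4 plasma cell markers tested. KO-3 was also the lowest library in 12 of 14 podocyte markers. The part of these cells in the chaperone values of KO-3 was not tested.

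**Figure D4:**
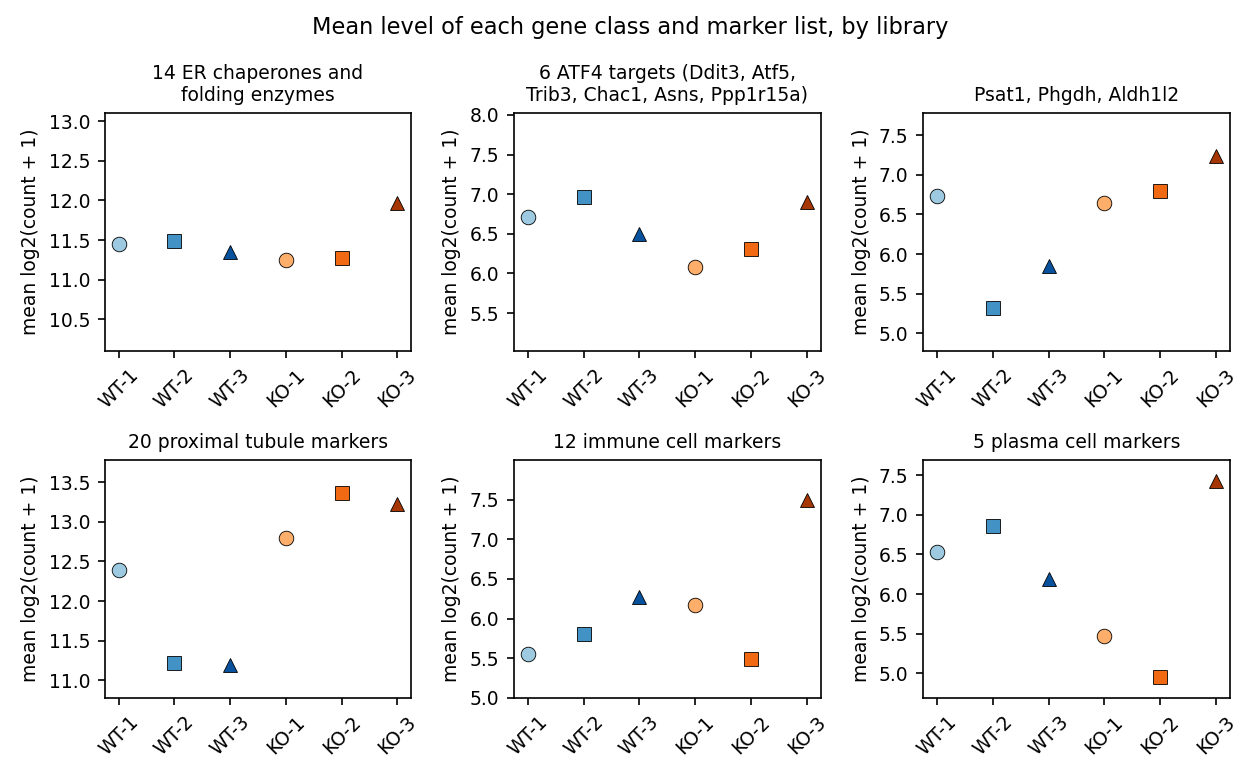
Mean log2(normalised count + 1) of 3 classes of stress genes (upper row) and 3 lists of cell markers (lower row) in each of the 6 libraries, with axes that all span 3 log2 units. KO-3 is highest for the 14 chaperones (11.96), the immune markers (7.50) and the plasma cell markers (7.42), and the proximal tubule markers are higher in all KO libraries (12.80 to 13.36) than in WT (11.20 to 12.39).

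The wider pathway was covered by 155 further genes in 8 lists. Of these 16 rose, or 10.3%, and 4 fell, or 2.58%, beside 13.5% and 8.58% of all genes. Every one of these calls was lost when WT-2, WT-3, KO-2 or KO-3 was left out, with 0 higher and 0 lower each time. Among 25 sensors and regulators none rose and 2 fell. Creb3l1, an ATF6-like membrane factor linked to collagen secretion, stood at 398, 510 and 469 in WT and at 274, 247 and 225 in KO (log2 fold change -0.88, limma adjusted p = 0.0286), and Cebpg, a partner of ATF4, fell by 0.35 on the log2 scale (limma adjusted p = 0.0304). Of 32 folding and glycoprotein quality control genes, Prkcsh, a subunit of glucosidase II, rose by 0.31 and Fkbp10, a collagen prolyl isomerase, fell by 0.67. Of 25 degradation genes, Sel1l3 and Rnf5 rose, by 1.67 and 0.34, and of 22 translocation genes Ssr4 rose by 0.30. All of these calls had limma adjusted p-values of at most 0.0499. The KO libraries all lay below the WT libraries in Creb3l1, Cebpg and Fkbp10, beside 21.9% of all genes. They all lay above in Prkcsh, Sel1l3, Rnf5 and Ssr4, beside 23.2%. Markers with all KO libraries below were 8 of 9 mesangial, 13 of 14 endothelial and 8 of 14 podocyte genes. The part of cell makeup was not tested.

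Enzymes and transporters of amino acid metabolism that are known ATF4 targets made up 8 of the 16 genes that rose. Of 10 further enzymes of serine, folate-linked, proline and asparagine metabolism, 6 rose and none fell, with a median log2 fold change of 1.06. Shmt2, the mitochondrial serine hydroxymethyltransferase, stood at 1092, 618 and 565 in WT and at 1640, 2064 and 1666 in KO (log2 fold change 1.29, limma adjusted p = 0.0286). Gpt2 and Cth, of alanine and cysteine synthesis, rose by 1.65 and 1.59. These enzymes were highest in KO-2 in 6 cases and in KO-3 in 4. WT-1 was the highest WT library in each of these 3 named genes, as it was for the proximal tubule markers. The part of tubule RNA in their rise was not tested, and the tubule covariate can hardly be told apart from genotype. With the tubule covariate 0 of the 155 genes passed in limma, as did 0 of all 13946 genes tested, of which 391 had an unadjusted p below 0.05.

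Of the remaining pathway lists, 7 genes passed, among them both transporters counted above. Of 7 amino acid transporters, Slc1a5 rose by 0.52 and Slc6a9 by 0.69. Of 15 other genes listed as ATF4 targets, 3 passed. Sesn2, a stress-induced inhibitor of mTORC1, rose from 141, 85.1 and 104 in WT to 239, 258 and 365 in KO (log2 fold change 1.38, limma adjusted p = 0.0286). Vldlr and Chac2 rose by 1.22 and 0.80. The summed level of that list, with its untested genes, was 32868 to 38422 in WT, 798310 in KO-1, 28720 in KO-2 and 26493 in KO-3. Of 19 cytosolic tRNA synthetases, Sars rose by 0.39 and Wars fell by 0.44.

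Stress responses of other compartments served as a comparison. Of 17 cytosolic heat shock genes none passed the test in limma, and KO-3 was the highest library in 9. An unadjusted p below 0.05 was found in 2 of the 17, beside 5563 of all 13946 genes tested. Of 14 mitochondrial chaperones and proteases 10 rose and none fell, beside 13.5% and 8.58% of all genes, with a median log2 fold change of 0.60. None of these calls was kept in limma without WT-3 or with the proximal tubule covariate, where 0 of all genes tested were called. Clpx, a mitochondrial unfoldase, stood at 1446, 872 and 1068 in WT and at 1922, 2030 and 1785 in KO (log2 fold change 0.79, limma adjusted p = 0.0304), and Trap1, the mitochondrial HSP90, rose by 0.79. The highest library was KO-2 in 9 of the 14 and KO-3 in 3, beside 25.7% and 18.2% of all genes. KO-2 was also highest in 15 of the 20 proximal tubule markers, and the part of tubule RNA in these 14 genes was not tested.

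**Figure D5:**
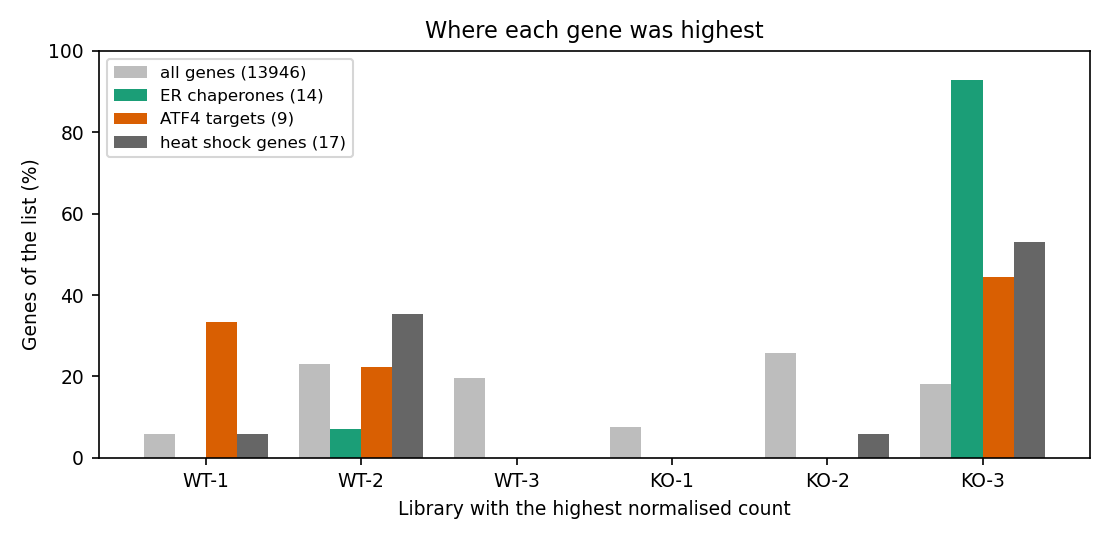
Percentage of genes (y axis) whose highest normalised count was in each of the 6 libraries (x axis), for all 13946 genes tested, the 14 ER chaperones, the 9 ATF4 targets and 17 cytosolic heat shock genes. KO-3 holds 92.9% of the chaperones, 44.4% of the ATF4 targets and 52.9% of the heat shock genes, beside 18.2% of all genes.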

How the data were processed

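RNA-seq of glomeruli from 3 KO and 3 WT mice was analysed from a single table of 27179 genes. Its values are normalised counts, a signal deposited by the authors that holds gene-level reads scaled with library size factors, as the column headers and the values show. Per the submitters' processing notes build mm10 was used with bcl2fastq 2.19 and cutadapt 1.16.5 for the reads, HISAT2 2.1 and then featureCounts 1.6.4, and with DESeq2 2.11.40.6. The sources used here do not give the annotation or the strand setting, so reads of overlapping genes, such as Hspa5 and Rabepk, Ddit3 and Mars1, or Atf5 and Nup62, cannot be told apart. Dividing by the smallest step gave whole reads for 100% of values (tolerance 0.01).

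Symbols came from RefSeq (25275 identifiers) and GENCODE M21 (25293 in all). Lengths are the union of GENCODE exons. limma 3.58.1 in R 4.3.3 was run with a variance trend on log2(normalised count + 1) for genes with a mean of at least 10, with genotype as the only term and two-sided Benjamini-Hochberg adjusted p-values. Fold changes on this scale understate those of low genes. Other settings tried were DESeq2 1.42.0 and edgeR 4.0.16 on recovered reads, upper quartile and TMM scaling, pseudocounts of 5 and 0.5, a block for the replicate number, no trend, a robust prior, other filters, a covariate for the mean of the proximal tubule markers, and leaving out each library. The steps were tested on simulated data. Every pair of libraries differed by more than sampling noise (lowest chi-square over its degrees of freedom 23.4).

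The members and lists were chosen with earlier results of these data known. Every member is described, and of each other list up to 3 called genes with the smallest adjusted p, of which 1 is left unnamed.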

Additional observations from a re-analysis of the deposited data

How the results depend on the processing

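Psat1 was called in the deposited scaling and under both pseudocounts, both scalings, the robust prior, both filters, edgeR and DESeq2. The number of the 31 genes called higher was 0 with a replicate block, 0 without the variance trend and 0 with the proximal tubule covariate, and 0 to 2 when a library was left out; 0 were called lower in every setting. In the wider lists the numbers called higher and lower were 0 and 0 in those same 3 settings, and ran from 0 to 22 and from 0 to 7 when a library was left out. Same-numbered libraries did not deviate alike from their group means (correlations -0.226, -0.191 and -0.0129). With 3 libraries per genotype this cannot show whether the libraries were paired. Over all genes the replicate block gave 0 calls in limma, with 4284 at an unadjusted p below 0.05. Without the block the numbers called higher and lower were 1889 and 1196 in limma, and 1690 and 1151 in edgeR. Without the variance trend they were 1 and 0, and with the proximal tubule covariate 0 and 0.

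The sign of uncalled genes depended on the setting, and the cause was not tested. With the proximal tubule covariate the log2 fold change was -0.29 for Ern1, -0.02 for Eif2ak3, -0.21 for Hspa5, -0.10 for Dnajb11, -0.10 for Calr, -0.04 for Canx, -0.14 for Pdia3, -0.31 for Creld2, -0.08 for Manf, -0.19 for Herpud1, 0.01 for Trib3, -0.44 for Phgdh and -0.91 for Aldh1l2. Upper quartile scaling, which put the median of all genes at -0.07, gave -0.04 for Eif2ak3, -0.03 for Hspa5, -0.01 for Hyou1 and -0.03 for Creld2. When a library was left out, the range was -0.04 to 0.58 for Ern1, -0.07 to 0.11 for Eif2ak3, -0.39 to 0.24 for Hspa5, -0.29 to 0.08 for Hsp90b1, -0.22 to 0.07 for Dnajb9, -0.09 to 0.19 for Dnajb11, -0.16 to 0.44 for Sdf2l1, -0.11 to 0.17 for Hyou1, -0.01 to 0.28 for Calr, -0.02 to 0.25 for Pdia3, -0.06 to 0.26 for Pdia6, -0.38 to 0.29 for Creld2, -0.30 to 0.45 for Manf, -0.02 to 0.14 for Sel1l, -0.35 to 0.25 for Asns and -0.04 to 0.96 for Aldh1l2. Without KO-3, 23 of the 31 log2 fold changes were negative, against 12 with all libraries. Trib3, Chac1, Aldh1l2 and Derl3 rest on at most 25 reads per library, which limits their precision; such limits cover counting error only.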
